A study of Homo sapiens with 4 samples.

Results

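The cytosolic ribosome is built from a large and a small subunit, and the messages for their proteins were followed in the established human ovarian cancer line ES2 after treatment with EC359. EC359 is an inhibitor of LIFR, the receptor for the cytokine LIF. Genes were taken by name, as symbols starting with RPL (large subunit, with the stalk genes RPLP0, RPLP1 and RPLP2) or RPS (small subunit, with RPSA), where all 4 libraries held at least 100 counts. Of the 83 symbols that matched by name, 74 met this minimum, 45 of 50 for the large and 29 of 33 for the small subunit, out of 23228 gene symbols in all. The cells were grown in RPMI medium with 10% serum, and 2 libraries were made from cells given 10 nM EC359 for 12 h and 2 from cells given vehicle, 0.1% DMSO, for the same time. The study calls the libraries biologically independent samples. A single line at a single dose and time was sequenced.

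The large subunit joins amino acids into protein, and the small subunit reads the mRNA. Each ribosome carries most of these proteins once, and the cell makes them in matched amounts, with unassembled protein degraded. Most of the messages begin with a run of C and T bases at the very 5′ end, called the 5′ terminal oligopyrimidine tract, through which the mTOR pathway and LARP1 set how strongly they are translated. Proliferating tumor cells spend a large part of their transcripts on this family. Because these are counts from bulk RNA, fewer cells with a message and less message per cell cannot be told apart.

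Libraries held between 25572494 and 31707553 counts on genes, and TMM scaling factors ran from 0.992 to 1.01. Vimentin (VIM) had at least 135855 counts in each library, while the keratin KRT7 had at least 6679 and KRT18 at least 6304. EPCAM, CDH1 and MUC16, markers of other epithelial and ovarian tumor cells, were at 0 to 2 counts, and PAX8 had at most 41. The leukocyte markers PTPRC and CD3E were at 0 or 1 count and CD14 at 2 or fewer, whereas CD68, which is also made outside that lineage, had 2296 to 2914 counts. Of the endothelial markers, PECAM1 and VWF were at 2 or fewer counts and CDH5 had 3118 to 3920. None of the tested markers passed at an adjusted p under 0.01. VIM had 150994 and 157710 normalized counts with vehicle and 135415 and 139151 with EC359, a log2 fold change of -0.17 (adjusted p = 0.0135, edgeR's quasi-likelihood test). All 5 tested epithelial markers of 9 listed had a higher mean, against 51.0% of all tested genes. In 2 of them the treatments did not overlap, against 26.1% of all tested genes higher without overlap. These were KRT18 at 0.090 (adjusted p = 0.204, same test) and PAX8, which had at most 41 counts. The part of these marker differences in the values of the ribosomal proteins was not tested.

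The start of the message is shown for 8 members, because it carries the sequence by which this family is known. These are the 4 genes that passed the test, and RPL41 with the lowest fitted fold change of all members. RPL26 is the large subunit gene above its vehicle level with the lowest adjusted p. RPL3 and RPS27L have annotated starts that lack the tract as defined below. Sequences are from the RefSeq promoter table (GRCh38.p14), 30 bases long with the annotated start as base 16 and written on the gene's strand. Capitals mark the longest run of C and T that comes within 5 bases of the start.
RPL13A (chr19:49487593-49487622, plus strand): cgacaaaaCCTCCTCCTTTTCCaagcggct
RPS14 (chr5:150449725-150449754, minus strand): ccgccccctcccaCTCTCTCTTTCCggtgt
RPS6 (chr9:19380222-19380251, minus strand): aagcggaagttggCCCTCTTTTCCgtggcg
RPS3 (chr11:75399503-75399532, plus strand): gcccgcgagccaCTTCCTTTCCTTTCagcg
RPL26 (chr17:8383179-8383208, minus strand): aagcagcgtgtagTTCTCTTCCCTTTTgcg
RPL41 (chr12:56116618-56116647, plus strand): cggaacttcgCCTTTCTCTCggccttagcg
RPL3 (chr22:39319609-39319638, minus strand): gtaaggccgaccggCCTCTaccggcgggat
RPS27L (chr15:63157463-63157492, minus strand): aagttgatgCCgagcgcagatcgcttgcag

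Of the 74 members, 60 had an entry in that table. A tract, defined as a C at the start followed by 4 or more C or T, stood in 38 of the 60 (63.3%), in 23 of 37 for the large subunit (62.2%) and 15 of 23 for the small (65.2%). Over all 35116 promoters in the table the share was 4.07%. Here and below, members count once per gene, while this background counts every promoter entry, those of members included. Tracts were 5 to 19 bases long with a median of 8. The start of RPS27L is a G, and that of RPL3 is a C followed by too few pyrimidines. In the 300-base promoters, the ETS motif CCGGAAG, searched on both strands, was found in 35.0% of members against 10.3% of all promoters. The YY1 motif AAGATGGC was found in 8.33% against 2.89%, the GC box GGGCGG in 56.7% against 45.0% and TATAAA in 8.33% against 11.5%. These are letter matches and not measured binding.

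To compare the subunits, the counts of all members were first summed within each library. Messages for the large subunit made up 2.35% and 2.33% of all counts in the vehicle libraries and 2.31% and 2.35% in the EC359 libraries, so that their range overlapped. For the small subunit the share was 1.59% and 1.55% with vehicle and 1.49% and 1.49% with EC359, lower in both treated libraries. The log2 ratio of large to small counts was 0.561 and 0.587 with vehicle and 0.635 and 0.658 with EC359. This ratio needs no scaling between libraries, and it was 0.072 higher with EC359, against a spread between replicates of 0.017 (pooled SD). Both EC359 libraries lay above both vehicle libraries. With 2 libraries against 2, an exact permutation test cannot give a two-sided p below 0.333, and none was run.

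**Figure D1:**
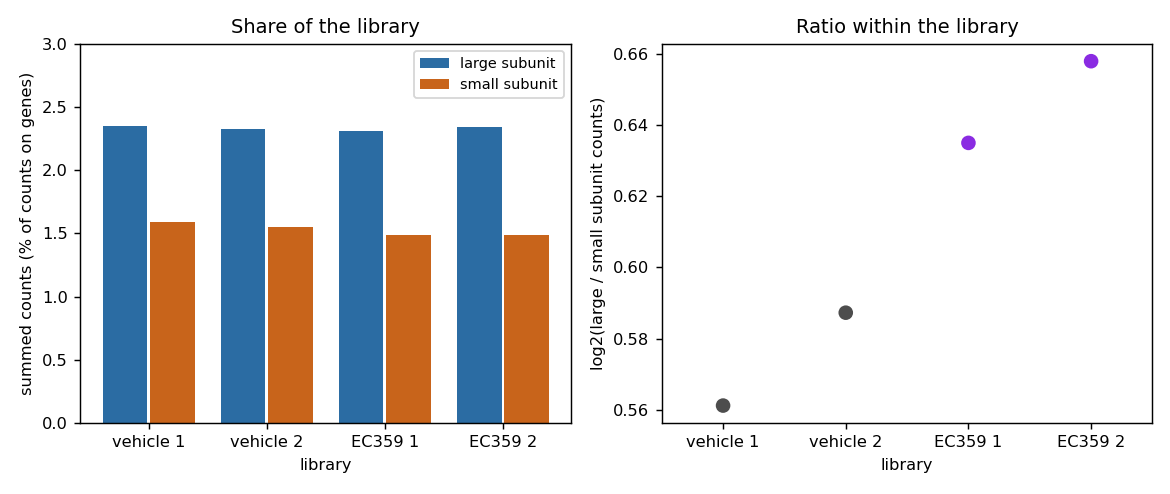
Share of each library's gene counts in the summed large (blue) and small (orange) subunit members, in percent (left), and log2 of the large to small ratio in the same library (right, axis not from 0), 1 bar or point per library. The small subunit bars are lower in both EC359 libraries (1.49% in each), and the ratio is above both vehicle libraries there.

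After TMM scaling, the summed normalized counts of the small subunit were 452616 and 440407 with vehicle and 417164 and 415216 with EC359, a difference of -6.79%. Those of the large subunit were 667859 and 661685 with vehicle and 647803 and 655099 with EC359, a difference of -2.0%. Neither sum overlapped between treatments. The ratio did not rest on a single abundant gene. Leaving out RPL3, RPL8, RPL5, RPS3, RPS4X or RPS6, one at a time, left a log2 difference of 0.061 to 0.077. Without RPL13 and RPL26, the large subunit genes with the highest fitted fold changes, it was 0.057, and without the 4 members that passed the test it was 0.041. Among members with less than 50% shared sequence it was 0.079. The treated libraries were higher in each of these sets. Without the 4 members that passed, the log2 ratios were 1.066 and 1.099 with vehicle and 1.109 and 1.137 with EC359. There the replicates of each treatment lay further apart than the nearest libraries of different treatments.

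Gene by gene, most members were slightly lower with EC359, and few passed the test. The median log2 fold change was -0.052 for the 45 large subunit genes, between quartiles of -0.11 and 0.0038. For the 29 small subunit genes it was -0.11, between quartiles of -0.17 and -0.018, while the median of all 12706 tested genes was 0.0029. The mean was lower with EC359 for 31 of 45 large and 23 of 29 small subunit genes, against 49.0% of all tested genes. With the transcript length trend removed these tallies were 23 of 45 and 19 of 29, and with coding length 27 and 20. In 17 small subunit genes both EC359 libraries were below both vehicle libraries and in 0 above. In the large subunit 20 were below and 5 above. Over all tested genes such separation was seen below in 25.4% and above in 26.1%.

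At an adjusted p under 0.01 (Benjamini-Hochberg, edgeR's quasi-likelihood test), 3 small subunit genes fell (RPS14, RPS6 and RPS3), which is 10.3% of 29, and 1 large subunit gene fell (RPL13A), which is 2.22% of 45. No member rose at this threshold. Over all tested genes 0.795% fell and 0.299% rose, together 1.09%. At an unadjusted p under 0.05, 13 large subunit genes were lower and 2 higher, and 12 small subunit genes were lower and 0 higher, against 11.0% and 10.7% of all genes. DESeq2 called 3 large and 6 small subunit genes, and 1.81% of all genes. The difference between subunits in these counts was not tested.

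Many members are among the most counted genes, and other genes with as many counts also fell more often than all tested genes (0.795%). Of 392 other tested genes with at least the median count of the large subunit members, 35 fell (8.93%), and their median log2 fold change was -0.042. Of 84 such genes whose coding sequence was also no longer than that of the longest small subunit member (888 bases), 10 fell (11.9%), with a median of -0.069, and the mean was lower in 63. The share of small subunit genes that fell (10.3%) lay between these shares. That of the large subunit (2.22%) and that of all 74 members (5.41%) were below both. When each library's trend against transcript length was removed, the medians moved to -0.00038 for the large and -0.036 for the small subunit, and with coding length, an alternative chosen after seeing the data, to -0.015 and -0.058. With transcript length 1 small subunit gene fell and 1 large subunit gene rose, against 1.22% called over all genes. With total counts in place of TMM factors, or with no filter on low counts, 0 members were called, against 0.944% and 0.367% of all genes, and over the 12 alternatives with all libraries the adjusted p of RPL13A, RPS14, RPS6 and RPS3 in each alternative's own test reached at most 0.0210. Without EC359 replicate 1 no member and 0 genes in all were called, and without EC359 replicate 2 no member and 2 genes, where the spread came from the vehicle pair alone and the lone EC359 library was assumed to vary alike. The log2 fold changes were then -0.24 and -0.22 for RPL13A, -0.19 and -0.19 for RPS14, -0.17 and -0.20 for RPS6 and -0.18 and -0.16 for RPS3.

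**Figure D2:**
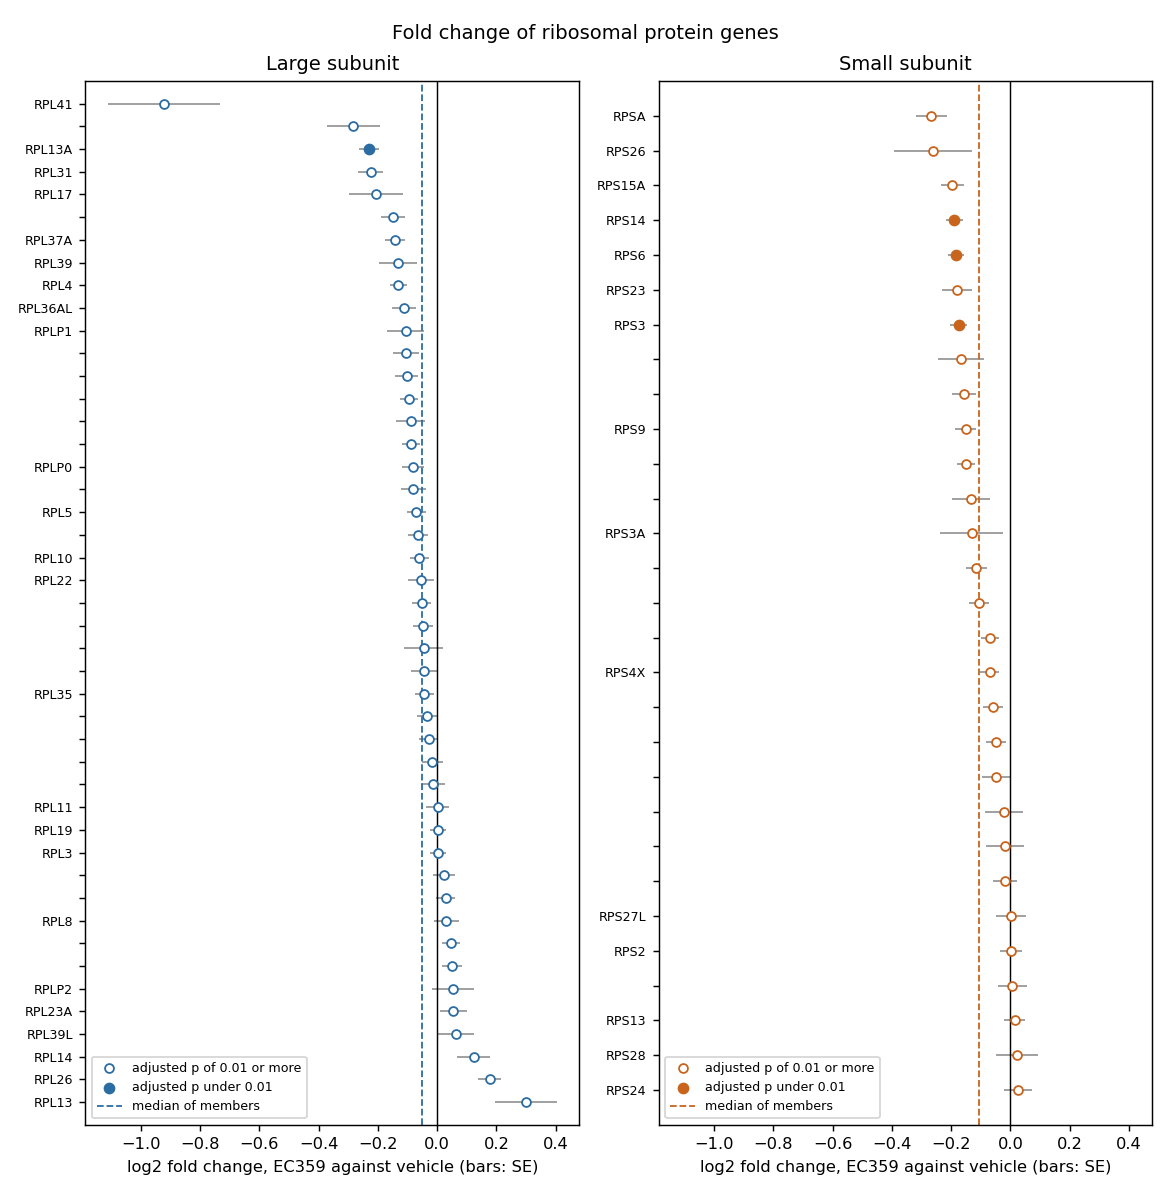
Log2 fold change, EC359 against vehicle, of each member with a bar for its SE, ordered by value with the members named in the text labelled, for the 45 large (left) and 29 small (right) subunit genes; filled points passed at an adjusted p under 0.01 and the dashed line is the subunit's median. Small subunit values lie between -0.27 and 0.026, whereas large subunit values run from -0.92 (RPL41) to 0.30 (RPL13).

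Among small subunit genes that passed the test, RPS6 is the classic substrate of S6 kinase, which acts below mTOR. Its normalized counts were 55671 and 55026 with vehicle and 48176 and 49294 with EC359, and the treatments did not overlap. The log2 fold change was -0.18 (SE 0.028, 95% interval -0.25 to -0.12, adjusted p = 0.00677, edgeR's quasi-likelihood test), which is -11.9%. RPS6 lies on chromosome 9 at 19375713-19380234 (GRCh37, minus strand).

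RPS14 is part of the platform, where the mRNA leaves the small subunit. It had 23285 and 23502 normalized counts with vehicle and 20479 and 20565 with EC359, with the replicates of a treatment closer to each other than to either library of the other. The log2 fold change was -0.19 (SE 0.029, adjusted p = 0.00677, edgeR's quasi-likelihood test). The gene lies on chromosome 5 at 149822198-149829302 (GRCh37, minus strand). RPS3 stands at the entry of the mRNA channel and also has a role in DNA repair. Its normalized counts were 57498 and 55754 with vehicle and 50500 and 49876 with EC359, without overlap. The log2 fold change was -0.17 (SE 0.029, adjusted p = 0.0097, edgeR's quasi-likelihood test), at chromosome 11, 75110559-75133324 (GRCh37, plus strand).

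In the large subunit the gene that passed was RPL13A, whose protein is also known as a translational silencer released from the ribosome in interferon-treated myeloid cells. It had 5914 and 6058 normalized counts with vehicle and 5125 and 5086 with EC359, with no overlap. The log2 fold change was -0.23 (SE 0.035, adjusted p = 0.00677, edgeR's quasi-likelihood test), at chromosome 19, 49990767-49996314 (GRCh37, plus strand). Of its 50-base coding windows, 74.6% also occur elsewhere in the genome, as processed copies of these genes are frequent, and reads with several alignments were not counted. For RPS14, RPS6 and RPS3 this share was 11.8%, 15.4% and 27.5%.

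**Figure D3:**
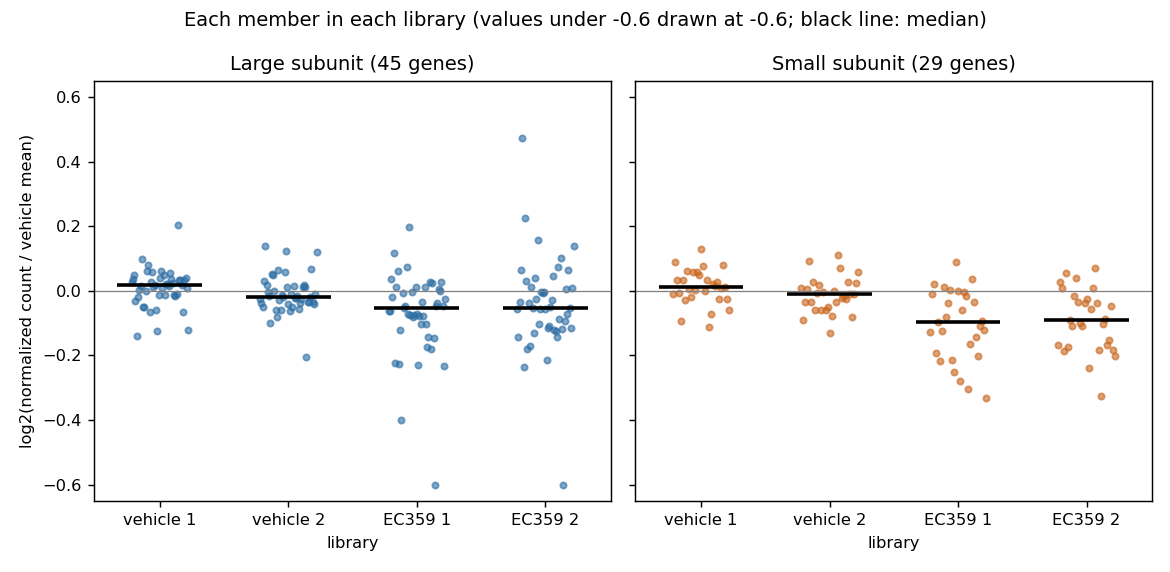
Each member's normalized count in each library, drawn as log2 against its vehicle mean, for the large (left) and small (right) subunits, with 1 point per gene and a line at the median (RPL41 lies under the axis and is drawn at -0.6). In the EC359 libraries the small subunit median is -0.095 and -0.089, and the large subunit median is -0.054 and -0.053.

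At the wider threshold of an adjusted p under 0.05, 7 small subunit genes were lower and 0 higher, with RPSA, RPS15A and RPS9 among them beside the 3 above, against 2.64% lower and 1.68% higher over all genes. In the large subunit 5 were lower (RPL13A, RPL31, RPL41, RPL4 and RPL37A) and 1 was higher (RPL26). RPSA, the laminin receptor homologue that sits on the platform, had 4824 and 5241 normalized counts with vehicle and 3996 and 4370 with EC359. Both treated libraries were lower, and its log2 fold change of -0.27 (SE 0.052, adjusted p = 0.0203, edgeR's quasi-likelihood test) was the lowest fitted value of the small subunit members. Of the coding windows of RPSA, 87.6% occur elsewhere in the genome. RPS15A, a core protein of the small subunit, had 5751 and 5486 normalized counts with vehicle and 4832 and 4978 with EC359, again apart, at a log2 fold change of -0.20 (adjusted p = 0.0203, same test). RPS9, an early-binding protein of the small subunit, had a log2 fold change of -0.15, with adjusted p = 0.043 in edgeR's quasi-likelihood test.

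RPL41 encodes a tiny basic peptide of the large subunit and has the shortest coding sequence of all members, at 78 bases. It had 292 and 220 normalized counts with vehicle and 161 and 108 with EC359, so the treated libraries were lower but the replicates lay far apart. Its log2 fold change of -0.92 (SE 0.19, 95% interval -1.34 to -0.50, adjusted p = 0.0244, edgeR's quasi-likelihood test) rests on few counts. All of its coding windows occur elsewhere in the genome, as do those of RPL39 and RPS28, which had more counts. RPL26, which lies near the tunnel exit, had 25760 and 23759 normalized counts with vehicle and 28390 and 27606 with EC359. Both treated libraries were higher, with a log2 fold change of 0.18 (SE 0.039, adjusted p = 0.0319, edgeR's quasi-likelihood test), which was 0.11 without vehicle replicate 2 and 0.24 (adjusted p = 6.35e-05, called) without vehicle replicate 1. RPL13, a surface protein of the large subunit, had 9800 and 11880 with vehicle and 11717 and 14984 with EC359. The treatments overlapped, the replicates spread widely, and the log2 fold change of 0.30 (SE 0.10) had an adjusted p of 0.129 in edgeR's quasi-likelihood test. Its value was 0.11 without EC359 replicate 2, 0.47 without EC359 replicate 1, 0.17 without vehicle replicate 1 and 0.44 without vehicle replicate 2. It was called in the last of these (adjusted p = 0.000246, same test) and with the GC trend removed (adjusted p = 0.00171).

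By site on the ribosome, the large subunit was mixed. The exit tunnel and its rim are lined by RPL4, RPL17, RPL39, RPL19, RPL23A, RPL26, RPL31 and RPL35. Of these, 5 had a lower and 3 a higher mean, against 49.0% lower over all genes. In edgeR's quasi-likelihood test 0 passed at an adjusted p under 0.01. At an unadjusted p under 0.05 in the same test, 3 were lower and 1 higher, against 11.0% and 10.7% of all genes. RPL31, at the tunnel rim, had 10562 and 9680 normalized counts with vehicle and 8618 and 8711 with EC359. The treated libraries were lower, and the log2 fold change was -0.22 (SE 0.042, adjusted p = 0.0168, same test). RPL4, which reaches into the tunnel wall, had 27308 and 27722 with vehicle and 24867 and 25374 with EC359. These did not overlap either, and the log2 fold change was -0.13 (adjusted p = 0.0329, same test). RPL17, RPL39, RPL19, RPL23A and RPL35 had log2 fold changes of -0.21, -0.13, 0.0028, 0.055 and -0.043. The adjusted p in edgeR's quasi-likelihood test was lowest for RPL17, at 0.221, and 90.1% of the coding windows of RPL17 occur elsewhere.

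Around the peptidyl transferase center, where the peptide bond is formed, the abundant RPL3 was near its vehicle level. It had 50596 and 51450 normalized counts with vehicle and 51410 and 50902 with EC359, and the ranges overlapped. The log2 fold change was 0.0038 with a 95% interval of -0.057 to 0.065. RPL8, which reaches the same center, had a log2 fold change of 0.031 (interval -0.062 to 0.12), and RPL10, which joins the subunit late, one of -0.060 (interval -0.13 to 0.013). RPL5 and RPL11 bind the 5S RNA. RPL5 had 35013 and 33415 with vehicle and 33109 and 32087 with EC359, just apart, and a log2 fold change of -0.070 (interval -0.14 to 0.0030). RPL11 had 28493 and 26625 with vehicle and 28266 and 26916 with EC359, an overlap, with a log2 fold change of 0.0017 (interval -0.084 to 0.087).

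The P stalk, which recruits the elongation factors, is made of RPLP0, RPLP1 and RPLP2, and none of these passed the test. RPLP0 had 24463 and 23106 normalized counts with vehicle and 23023 and 21934 with EC359, just apart. RPLP1 had 15260 and 15077 with vehicle and 12905 and 15273 with EC359, and RPLP2 had 9229 and 10927 with vehicle and 9868 and 11068 with EC359. In both of the latter the treatments overlapped, and the log2 fold changes of the 3 were -0.081, -0.11 and 0.055.

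Small subunit genes are given by the path of the mRNA. Of the 3 genes at the mRNA entry and decoding site, RPS3 fell, RPS23, which helps to keep decoding accurate, was at -0.18 (adjusted p = 0.0766, edgeR's quasi-likelihood test) and RPS2 was at 0.0024 (interval -0.077 to 0.082). RPS23 had 10048 and 9258 normalized counts with vehicle and 8104 and 8949 with EC359, and RPS2 had 10749 and 11011 with vehicle and 10607 and 11191 with EC359. Only the first of these pairs was apart. Of the 6 genes at the mRNA exit and platform, RPS14 fell and 5 in all had a lower mean, against 0.795% and 49.0% of all genes. RPS26, which contacts the mRNA just before the start codon, had 173 and 156 normalized counts with vehicle and 135 and 139 with EC359, and its log2 fold change was -0.26 (SE 0.13, adjusted p = 0.278, same test). At the same site, RPS3A was at -0.13 and RPS28 at 0.024 on the log2 scale. All coding windows of RPS26 and RPS28 and 98.9% of those of RPS3A occur elsewhere in the genome. The abundant RPS4X, which is made from the X chromosome, had 55547 and 53565 normalized counts with vehicle and 53210 and 50766 with EC359, without overlap, and a log2 fold change of -0.070 (interval -0.14 to 0.0029). Of the 3 genes at the beak, which include RPS10 below the count minimum, 0 passed in edgeR's quasi-likelihood test, and the median was -0.058. At an unadjusted p under 0.05 in that test 1 (RPS10) was lower and 0 higher, against 11.0% and 10.7% of all genes.

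Few other members stood far from the medians. In the large subunit RPL14, a surface protein, was at 0.12 with an interval of -0.0032 to 0.25, but at 0.012 without EC359 replicate 2 and 0.23 without EC359 replicate 1. The small subunit genes with the highest fitted log2 fold changes were RPS24 at 0.026, RPS28 at 0.024 and RPS13 at 0.014, and for all of them the treatments overlapped. Mutations in several of these genes cause Diamond-Blackfan anemia. Of 17 such genes listed, 16 were tested and 0 passed at an adjusted p under 0.01 in edgeR's quasi-likelihood test (3 lower and 1 higher at an unadjusted p under 0.05, against 11.0% and 10.7% of all genes), with a median log2 fold change of -0.061. The list includes RPS10, 1 of the 3 lower, and RPS27, which are below the count minimum.

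For genes with a second copy of different expression, RPL39 had 934 and 949 normalized counts with vehicle and 831 and 887 with EC359, and its paralogue RPL39L, known from testis and some tumors, had 944 and 966 with vehicle and 970 and 1025 with EC359. The former was lower and the latter higher without overlap, at log2 fold changes of -0.13 and 0.063, and the difference between them was not tested. All coding windows of RPL39 occur elsewhere in the genome and none of those of RPL39L, so their counts are not comparable as levels. RPS27L, a copy of RPS27, had 1838 and 1751 with vehicle and 1788 and 1805 with EC359, with overlap and a log2 fold change of 0.0014 (interval -0.11 to 0.11). RPL36AL, the autosomal copy of RPL36A, was at -0.11. RPL22 was at -0.055 and its copy RPL22L1 at -0.091, while RPL26L1 was at -0.092 beside the 0.18 of RPL26. RPL7L1, a nucleolar relative of RPL7, was at -0.081.

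The 9 symbols below the minimum had few counts. Raw counts in vehicle 1, vehicle 2, EC359 1 and EC359 2 were 96, 65, 68 and 62 for RPS10, 61, 60, 78 and 62 for RPL36A, 39, 47, 44 and 36 for RPL7, and 16, 25, 18 and 42 for RPS27. RPL21 had at most 2 and RPL10L at most 1, and the rest, RPL3L among them, were at 0. Just inside the minimum, RPL41 had 263, 198, 182 and 116, and RPS26 had 156, 140, 153 and 149. All coding windows of RPS10, RPL36A, RPS27 and RPL21 occur elsewhere, as do 99.7% of those of RPL7, while RPL3L, a muscle gene, has 0. Read-through genes that join RPL17, RPL36A and RPS10 to their neighbors had 0 counts.

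Levels can be compared between genes only per length, and here they were lower where more of the sequence was shared. CPM (library-scaled counts) per kilobase of coding sequence, averaged over the 4 libraries, ran from 15.4 for RPS26 to 3373 for RPL37A, a 220-fold range over proteins that the ribosome holds in nearly equal number. Log2 of this level went with the share of coding windows found elsewhere at a Pearson r of -0.65 and a Spearman rho of -0.62 across the 74 genes, which share the 4 libraries and are not independent replicates. Over the 60 genes with at least 100 unique windows the range was 18.4-fold, from 184 for RPSA to 3373 for RPL37A. Per kilobase of unique coding sequence it was 19.8-fold, from 309 for RPS27L to 6113 for RPS18.

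**Figure D4:**
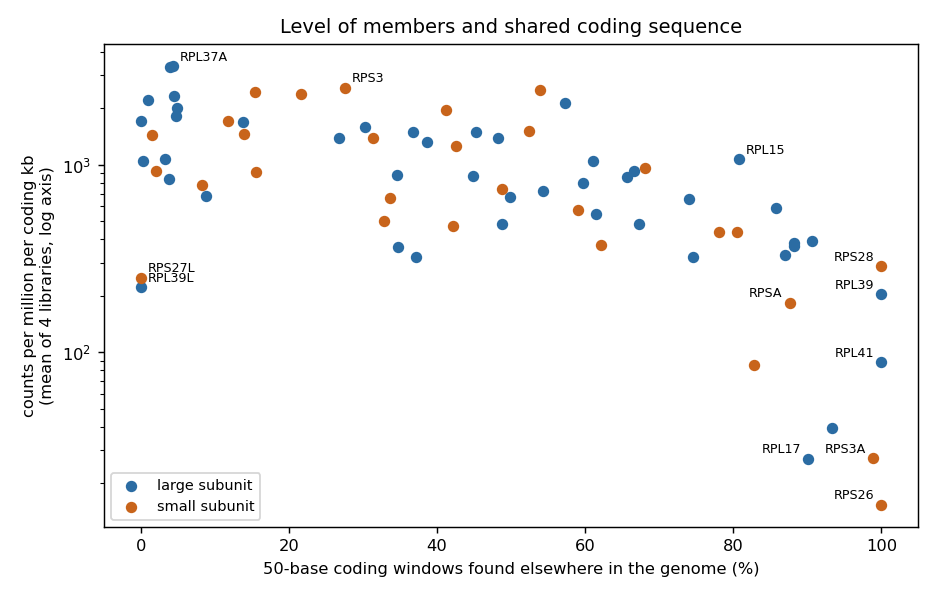
Level of each member (CPM per kilobase of coding sequence, log axis) against the percentage of its 50-base coding windows that occur elsewhere in the genome, with 1 point per gene, blue for the large and orange for the small subunit. Levels drop toward 100% (r -0.65), from 3373 for RPL37A to 15.4 for RPS26, while RPS27L and RPL39L are low with no shared windows.

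The fold change went less closely with shared sequence, with a Pearson r of -0.20 and a Spearman rho of -0.11 across the 74 genes, and an r of -0.27 and a rho of -0.19 across the 45 large subunit genes. In 16 members with less than 10% of windows elsewhere the median log2 fold change was -0.046, and 0 fell in edgeR's quasi-likelihood test. At an unadjusted p under 0.05 in that test 4 were lower and 0 higher, against 11.0% and 10.7% of all genes. In 26 members with 10% to 50% the median was -0.10 and 3 fell. In 32 members with 50% or more it was -0.048 and 1 fell. Over all tested genes 0.795% fell. Members with a tract at the annotated start had a median of -0.054 (29 of 38 with a lower mean). Those without it had one of -0.059 (15 of 22), and over all tested genes the mean was lower in 49.0%. Within the small subunit the medians were -0.13 with and -0.064 without the tract, and within the large subunit -0.048 and -0.038. These differences were not tested.

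To see whether other ribosome genes moved alongside, lists outside the name rule were read from the same fit. Of 6 further genes for ribosomal or ribosome-bound proteins, all had a lower mean and 0 passed at an adjusted p under 0.01 in edgeR's quasi-likelihood test (2 lower and 0 higher at an unadjusted p under 0.05, against 11.0% and 10.7% of all genes). GNB2L1, the signaling scaffold on the small subunit now named RACK1, had 52507 and 53958 with vehicle and 48992 and 48513 with EC359, apart, and a log2 fold change of -0.13 (adjusted p = 0.0336, same test). FAU, which encodes a small subunit protein fused to a ubiquitin-like one, was at -0.11 and overlapped.

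Ribosome assembly factors were split between higher and lower. Of 106 tested, 59 had a lower and 47 a higher mean, the median log2 fold change was -0.0084, and 0 passed at an adjusted p under 0.01 in edgeR's quasi-likelihood test (13 lower and 6 higher at an unadjusted p under 0.05, against 11.0% and 10.7% of all genes). Over all genes the mean was lower in 49.0%. Closest was FBL, the methyltransferase of ribosomal RNA, with 6205 and 6192 normalized counts with vehicle and 5309 and 5449 with EC359, a log2 fold change of -0.20 (adjusted p = 0.0108, same test). NOP10, of the pseudouridylation complex, was at -0.17, and the kinase RIOK1 and the assembly factor RRS1 were at 0.16 and 0.12. Of 20 genes for RNA polymerase I and its factors, which transcribe ribosomal RNA, 1 fell and 0 rose, against 0.795% and 0.299% of all genes, with a median of -0.050. The gene was POLR2H, a subunit shared by all 3 nuclear polymerases, with 2756 and 2634 normalized counts with vehicle and 2194 and 2110 with EC359. Its log2 fold change was -0.32 (SE 0.047, adjusted p = 0.0055, edgeR's quasi-likelihood test). POLR2L, another shared subunit, was at -0.21 (adjusted p = 0.0619, same test).

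**Figure D5:**
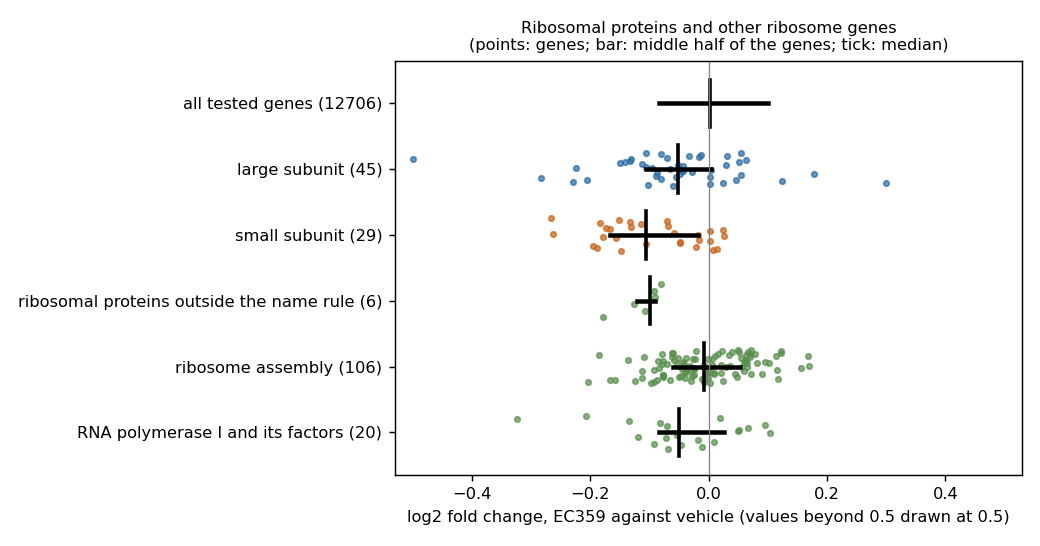
Log2 fold change, EC359 against vehicle, of members of both subunits and of the other ribosome lists, with 1 point per gene, a bar between the quartiles and a tick at the median (all tested genes as bar and tick only). RPL41 (-0.92) is drawn at the left limit of -0.5, and the medians are 0.0029 for all genes, -0.052, -0.11, -0.10, -0.0084 and -0.050 from top to bottom.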

How the data were processed

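RNA from ES2 cells given 10 nM EC359 or vehicle for 12 h was measured in 2 libraries per treatment. Libraries were stranded, polyadenylated mRNA, read as 50-base single ends. The authors aligned reads to hg19 and counted them per RefSeq gene, and deposited these raw counts by gene symbol. The submitters' processing notes name CASAVA 1.8.2, TopHat2 2.0.8b and HTSeq. The strand setting of the counting is not given in the sources used here, so genes overlapping on opposite strands are uncertain. Rows that name no gene were left out, and among them reads on no gene came to 10.9% to 12.0% and ambiguous reads to 0.852% to 0.879%.

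Genes were filtered with filterByExpr (minimum count 10, total 15), scaled with TMM and tested two-sided with edgeR 4.0.16 (quasi-likelihood, R 4.3.3), with Benjamini-Hochberg adjustment over 12706 genes. Normalized counts are raw counts set to the average effective library size. Library depth ran from 25572494 to 31707553 counts, with a biological coefficient of variation of 3.5%. Replicates differed by more than sampling noise (chi-square per degree of freedom 3.69 and 2.65). Alternatives were DESeq2 1.42.0, limma 3.58.1 voom, the exact test, other factors, filters and thresholds, removed length or GC trends, a replicate block, and each library left out.

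Coding lengths, places and 50-base windows came from GENCODE on GRCh37, which matched 85.01% of symbols, and promoters from RefSeq (GRCh38.p14). Members and lists were chosen with earlier results of these data known. The 45 genes with full values were called members, those with the lowest adjusted p, the most extreme fold changes or the most counts in each subunit, members of the site lists, and paralogue pairs, and some of these are not reported here. On simulated counts for this comparison, with 200 genes moved up or down by 0.2, 0.3 or 0.5 on the log2 scale, 11%, 35.5% and 73.5% were called, with 0 false calls each among 12615, 12624 and 12612 genes. The 200 genes were drawn at random from all tested genes and not matched to the counts of members. The rates for members themselves were not measured.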

Additional observations from a re-analysis of the deposited data

How the results depend on the processing

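Over all genes tested, 139 genes were called in the main test, 230 with DESeq2, 561 with edgeR's exact test, 61 without a filter on low counts, 1080 with the GC trend removed, 549 at an adjusted p under 0.05 and 1255 at an unadjusted p under 0.01, and 0 to 539 with 1 library left out. For the large subunit (1 in the main test) these settings called 3, 6, 0, 13, 6 and 9 members and 0 to 7, and total counts in place of TMM called 0. For the small subunit (3) they called 6, 7, 0, 10, 7 and 11 and 0 to 7, total counts 0, and the transcript and coding length trends 1 each. All counts of 0 with a library left out came from leaving out an EC359 library.

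The median log2 fold change of the large subunit was -0.028 with total counts, -0.00038 with the transcript length trend removed, -0.015 with that of coding length, and -0.078 to -0.034 with 1 library left out. That of the small subunit was -0.083, -0.036 and -0.058 in the same order, -0.087 with the GC trend removed and -0.11 to -0.090 with 1 library left out. The log2 ratio of the subunits was higher with EC359, at 0.059 to 0.085, with the transcript length or GC trend removed, with 1 library left out and among members with less than 50% shared sequence, and at 0.041 to 0.077 in the sets that left out named genes. The cause of these shifts was not tested. The 2 libraries per treatment limit what can be called.

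The labels do not say that replicate numbers mark a shared batch. Deviations of same-numbered libraries correlated at 0.252 across 11205 genes. A replicate block in the model called 1539 of 12706 genes. It called 18 of 45 large subunit members (3 higher and 15 lower) and 14 of 29 small subunit members (14 lower). With 4 libraries, such a block leaves fewer residual degrees of freedom than the main test. No paired reading of the members follows from a shared number.

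Of the 74 members, 19 changed sign under at least 1 alternative with all libraries and 25 with 1 library left out. Among the genes given in full, those with all libraries were RPL11 (-0.00032 without a filter), RPL35 (0.060 with the transcript length and 0.0058 with the coding length trend removed), RPL8 (-0.035), RPS2 (-0.0036) and RPS27L (-0.023) with the GC trend removed, and RPS27L also at -0.00057 without a filter and -0.0093 with the transcript length trend removed. With 1 library left out, among the genes given in full, the log2 fold change ranged from -0.052 to 0.052 for RPL11, -0.0049 to 0.011 for RPL19, -0.12 to 0.0073 for RPL22, -0.0065 to 0.11 for RPL23A, -0.0075 to 0.011 for RPL3, -0.034 to 0.094 for RPL8, -0.23 to 0.0095 for RPLP1, -0.061 to 0.18 for RPLP2, -0.024 to 0.049 for RPS13, -0.036 to 0.040 for RPS2, -0.040 to 0.088 for RPS24, -0.039 to 0.038 for RPS27L, -0.082 to 0.13 for RPS28 and -0.32 to 0.036 for RPS3A. RPL36A and RPS27, below the count minimum, also changed sign, with ranges of -0.22 to 0.036 and -0.51 to 0.78.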
